A study of Mus musculus with 6 samples.

Results

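Mitochondria carry their own ribosome, which makes the few proteins encoded by the mitochondrial genome, all of them subunits of the respiratory chain and the ATP synthase. Its RNA comes from that genome, but its proteins are encoded in the nucleus, made in the cytosol and imported. The large subunit joins amino acids and holds the exit tunnel, and the small subunit reads the messenger RNA. Many of these proteins are counterparts of bacterial ribosomal proteins and others are found only in mitochondria.

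The genes described here are those whose symbol is Mrpl (large subunit) or Mrps (small subunit) followed by a number and at most 1 letter. The name alone sets membership, but the rule was chosen with earlier results of these data known. These genes were 78 of the 16426 genes in the deposited table, 49 named for the large and 29 for the small subunit. All 78 reached 1 FPKM in at least 3 of the 6 libraries and were tested with 10804 genes in all. FPKM is the number of fragments scaled by transcript length and library size, so levels of different genes can be set side by side.

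The cells were 4T1-LM3, a mouse mammary carcinoma line. A group of 3 libraries, called control CM, came from cells cultured in control conditioned medium, whose source the labels do not give. The other group of 3, called Tdo2high CM, came from cells given medium conditioned by matrix fibroblasts (MFs) described as Tdo2high; Tdo2 encodes a tryptophan-degrading enzyme. The labels state neither time nor dose, and no group with medium from Tdo2-low fibroblasts was analysed here. The labels do not say whether the samples were separate cultures, so p-values measure the spread between these samples only. The FPKM totals of the libraries ran from 438603 to 447415, and read depth is unknown. Of the markers of the line, Krt8, Krt18 and Vim were expressed, at means of 274, 367 and 1249 FPKM over all libraries, whereas Epcam and Cdh1 did not exceed 0.11 and 0.02 FPKM. Of 6 fibroblast markers in the table, Col1a1, Col1a2 and Lum were at or under 0.12 FPKM in every library. Pdgfra, Npnt and Dcn were expressed, at means of 44.6, 37.2 and 13.2 FPKM over all libraries. Npnt and Pdgfra rose with Tdo2high CM (log2 fold changes 0.46 and 0.17, adjusted p = 9.97e-05 and 0.00518 by limma) and Dcn fell (-0.48, adjusted p = 0.00114). Their part in the results was not tested.

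The question was whether messenger RNAs of the mitochondrial ribosome differed between the media, and whether the large and small subunits did so differently. Of the 78 genes, 1 rose with Tdo2high CM and none fell by limma at an adjusted p under 0.05. Among all genes tested, 7.41% were called, 3.35% higher and 4.06% lower. The gene that rose was Mrpl50, by 1.14-fold, and its call was not stable. All 78 log2 fold changes lay between -0.11 and 0.22. The family was thus called no more often than genes at large, and no change larger than about 1.2-fold in either direction was measured for any of its members.

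Several of these genes start back to back with another gene on the opposite strand, so that the bases between the starts lie upstream of both. Such stretches are shown for the member that rose (Mrpl50), for the pair in which both genes are members (Mrps11 and Mrpl46), for a member whose neighbour fell (Mrps12), and for a member with sites of NRF1, a known activator of nuclear genes for mitochondria (Mrpl32). Each is written 5′ to 3′ on the strand of the named member and ends at the base before its start. Capitals mark matches to the motifs described further on. The sequences and starts are RefSeq's, on GRCm38.p6.
Mrpl50, minus strand, chr4:49521084-49521175, up to Zfp189: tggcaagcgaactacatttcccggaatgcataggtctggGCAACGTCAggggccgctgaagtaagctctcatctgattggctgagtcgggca
Mrps11, plus strand, chr7:78783090-78783130, up to Mrpl46: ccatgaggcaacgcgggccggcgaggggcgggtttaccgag
Mrps12, minus strand, chr7:28741822-28741967, up to Sars2: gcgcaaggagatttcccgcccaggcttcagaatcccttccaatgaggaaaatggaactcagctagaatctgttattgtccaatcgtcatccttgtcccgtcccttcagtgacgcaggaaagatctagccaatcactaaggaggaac
Mrpl32, minus strand, chr13:14613038-14613241, up to Psma2: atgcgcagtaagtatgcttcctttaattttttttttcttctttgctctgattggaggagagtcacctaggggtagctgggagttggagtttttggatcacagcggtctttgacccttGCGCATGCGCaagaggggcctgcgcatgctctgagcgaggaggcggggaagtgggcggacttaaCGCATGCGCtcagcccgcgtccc
No annotated RefSeq gene covers the stretches of Mrpl50, Mrps11 and Mrpl32; that of Mrps12 reaches a few bases into the annotated span of Sars2.

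Levels of the family spanned 38.1-fold, from 4.42 to 168 FPKM (means over 6 libraries), with a median of 21.2 FPKM against 14.2 FPKM for all genes tested. The assembled ribosome holds most of these proteins in single copy. The median was 21.4 FPKM for the large-subunit and 21.1 FPKM for the small-subunit genes. The most abundant were Mrpl13 and Mrpl33, both counterparts of bacterial large-subunit proteins. Mrpl13 had 171, 167 and 164 FPKM with control CM and 168, 172 and 170 FPKM with Tdo2high CM. Mrpl33 had 165, 149 and 143 FPKM with control CM and 141, 160 and 152 FPKM with Tdo2high CM. In both genes the groups overlapped. Next were Mrpl24 and Mrpl30, at 77.1 and 72.7 FPKM over all libraries. These 4 genes stood above every small-subunit gene, of which Mrps21 (58.8 FPKM), Mrps18c (51.5) and Mrps6 (46.8) were the highest. At the low end, Mrpl17 had 4.04, 4.18 and 4.57 FPKM with control CM and 4.42, 4.63 and 4.67 FPKM with Tdo2high CM, with 1 control library inside the range of the other group. Mrpl19 (4.60 FPKM) and Mrpl35 (5.86) followed among the large-subunit genes. The lowest small-subunit genes were Mrps25 (4.59 FPKM), Mrps31 (9.08) and Mrps11 (9.69).

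**Figure D1:**
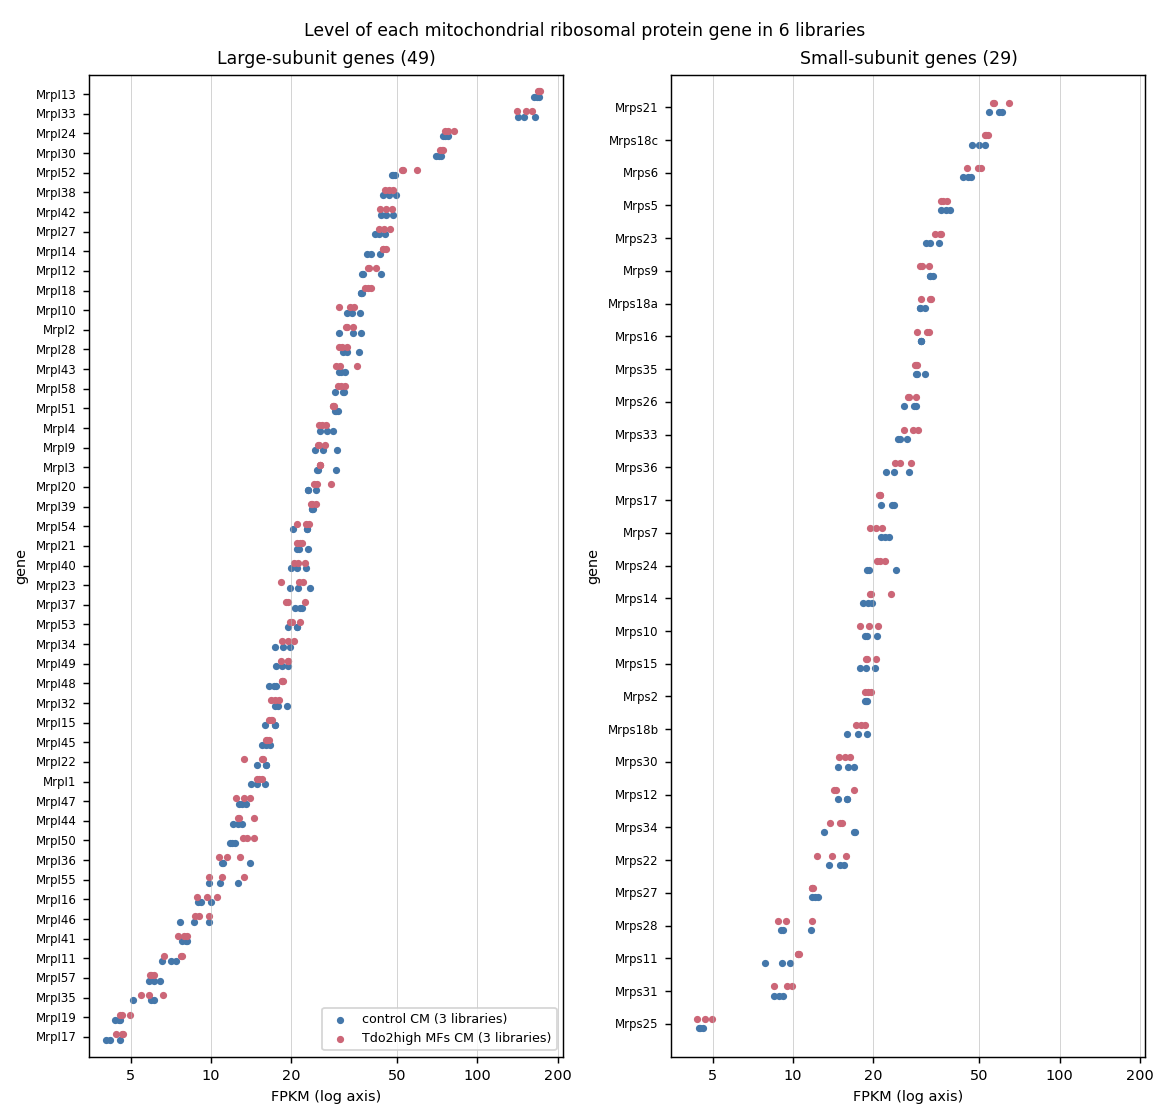
FPKM of each of the 78 genes on a log axis, with 1 point per library (blue, 3 control CM; red, 3 Tdo2high MFs CM), large-subunit genes on the left and small-subunit genes on the right, ordered by mean. Levels run from 4.42 FPKM for Mrpl17 to 168 FPKM for Mrpl13, and the points of both groups lie close together in every row.

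Mrpl50 encodes a large-subunit protein with no bacterial counterpart and lies on chromosome 4 from 49512597 to 49521083. Its level was 12.1, 12.4 and 11.8 FPKM with control CM and 13.7, 13.2 and 14.5 FPKM with Tdo2high CM. All 3 Tdo2high CM libraries stood above all 3 control libraries. The means were 12.1 ± 0.281 and 13.8 ± 0.682 FPKM (SD, n = 3 per group), and limma gave a log2 fold change of 0.18 ± 0.05 (SE, on the log2(FPKM + 1) scale) with an adjusted p of 0.0412. The call ended when any 1 library was left out, at adjusted p = 0.0505 to 0.137 by limma, and in 9 of 17 alternatives in all; the log2 fold change stayed between 0.14 and 0.21.

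A further 3 large-subunit genes came near the threshold. Mrpl52, another protein particular to mitochondria, had 49.2, 47.7 and 48.1 FPKM with control CM and 52.8, 52.0 and 59.3 FPKM with Tdo2high CM. Its groups did not overlap, and its log2 fold change was 0.17 ± 0.05 (adjusted p = 0.0502 by limma); it passed in 4 of 17 alternatives. Mrpl14, whose bacterial counterpart lies at the face between the subunits, had 39.8, 43.2 and 38.7 FPKM with control CM and 45.3, 44.2 and 44.3 FPKM with Tdo2high CM. Again every Tdo2high CM library was above every control library, with a log2 fold change of 0.13 ± 0.04 (adjusted p = 0.0756). Mrpl14 passed without control CM replicate 2 (adjusted p = 0.0181) and with a correction for GC content and length (0.0375). Mrpl48 had 17.2, 17.5 and 16.5 FPKM with control CM and 18.6, 18.6 and 18.6 FPKM with Tdo2high CM, and passed in none of the 17 alternatives (log2 fold change 0.12, adjusted p = 0.0864). Mrpl48 has a named processed copy in the annotation that could share reads.

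The other extreme values of the large subunit were farther from the threshold. Mrpl20 had a log2 fold change of 0.12 (adjusted p = 0.202) and Mrpl18 of 0.08 (0.130). The lowest were those of Mrpl28 (-0.08), Mrpl22 (-0.08), Mrpl37 (-0.07) and Mrpl10 (-0.07), with adjusted p between 0.351 and 0.495. In each of these 4 genes the groups overlapped. Mrpl12, the stalk protein that recruits translation factors and is present in several copies, had 39.2 ± 3.83 FPKM with control CM and 39.9 ± 1.59 FPKM with Tdo2high CM, a log2 fold change of 0.03 (95% interval -0.10 to 0.16). Mrpl58, a peptidyl-tRNA hydrolase built into the large subunit, had 30.8 ± 1.24 and 30.9 ± 0.870 FPKM.

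None of the 29 small-subunit genes was called. An unadjusted p under 0.05 by limma was found for 6 (20.7%, beside 23.7% of all genes tested), 3 higher and 3 lower. Mrps11, a counterpart of a bacterial protein of the platform, had the highest estimate of the whole family. Its level was 7.86, 9.78 and 9.08 FPKM with control CM and 10.5, 10.4 and 10.5 FPKM with Tdo2high CM. The control libraries were spread widely while the other 3 were nearly equal, and the groups did not overlap. The log2 fold change was 0.22 ± 0.07 (adjusted p = 0.0777 by limma), and it passed without control CM replicate 2 (adjusted p = 0.0364). Mrps33 (0.12), Mrps14 (0.12) and Mrps6 (0.10) came next, at adjusted p = 0.162, 0.308 and 0.215.

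The 3 lowest estimates of the whole family were also those of small-subunit genes, Mrps17, Mrps7 and Mrps9, counterparts of bacterial proteins. Mrps17 had 21.4, 23.9 and 23.6 FPKM with control CM and 21.3, 21.1 and 21.2 FPKM with Tdo2high CM, so that the groups only just separated. Its log2 fold change was -0.11 ± 0.04 (adjusted p = 0.153 by limma). Mrps7 had 22.1, 23.0 and 21.5 FPKM with control CM and 21.6, 19.5 and 20.6 FPKM with Tdo2high CM, with overlap. Mrps9 had 32.7, 32.5 and 33.5 FPKM with control CM and 30.5, 30.0 and 32.3 FPKM with Tdo2high CM, without overlap. Mrps7 and Mrps9 had log2 fold changes of -0.11 and -0.09 (adjusted p = 0.175 and 0.166). Mrps34, a protein particular to mitochondria, came next in the small subunit (-0.08), and its control libraries ran from 13.1 to 17.0 FPKM.

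**Figure D2:**
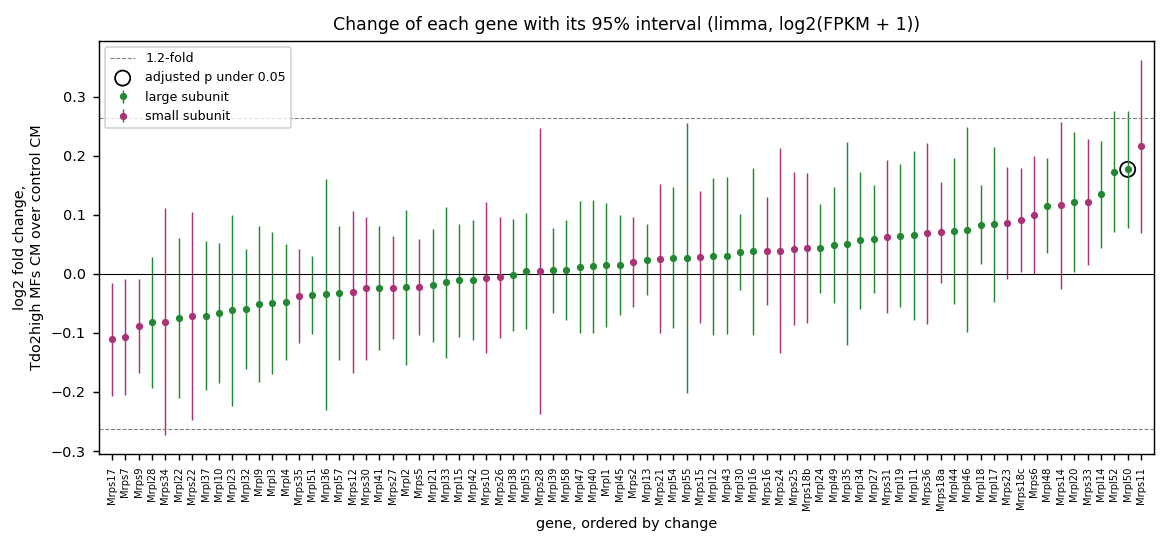
Log2 fold change (Tdo2high MFs CM over control CM, log2(FPKM + 1) scale) of each of the 78 genes in order of size, with bars for the 95% interval of limma's fit (green, large subunit; purple, small subunit) and dashed lines at 1.2-fold. Estimates run from -0.11 for Mrps17 to 0.22 for Mrps11, and the circle marks Mrpl50, the member called.

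The intervals show what size of change the libraries could have carried. For 74 of the 78 genes (94.9%) the 95% interval lay within 1.2-fold of FPKM + 1 in both directions (0.263 on the log2 scale). The share was 81.7% of all genes tested and 88.0% of tested genes within the members' range of levels. The exceptions among the members were Mrpl50, Mrpl52 and Mrps11 on the upper side and Mrps34 on the lower side. These are intervals of single genes and are not adjusted for their number. The coefficient of variation within a group had a median of 5.31% with control CM and 4.48% with Tdo2high CM.

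Without the adjustment, 12 of the 78 genes (15.4%) had p under 0.05 by limma, where 23.7% of all genes tested did. Of these, 9 were higher (11.5%, beside 9.68% of all genes tested) and 3 lower (3.85%, beside 14.1%). The groups did not overlap in 10 of 78 (12.8%), against 29.2% of all genes tested. In 7 of the 10 the Tdo2high CM libraries were above (Mrpl50, Mrpl52, Mrpl14, Mrpl48, Mrpl18, Mrpl19 and Mrps11), a share of 8.97% beside 11.6% of all genes tested. In 3 they were below (Mrps17, Mrps9 and Mrpl51), 3.85% beside 17.5%. The family's share was below that of genes at large on each of these counts except the unadjusted count of higher genes, where it was slightly above.

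Large and small subunit did not separate by calls, medians or summed FPKM. The large subunit had 1 of 49 genes called higher and the small subunit 0 of 29, and none was called lower in either. In the large subunit, 6 genes had an unadjusted p under 0.05 by limma, all higher (12.2%). In the small subunit 3 were higher and 3 lower (10.3% each), beside 9.68% and 14.1% of all genes tested. Tdo2high CM libraries stood apart above in 6 large-subunit genes and below in 1 (12.2% and 2.04%). For the small subunit it was 1 and 2 (3.45% and 6.90%), beside 11.6% and 17.5% of all genes. These splits were not tested. The median log2 fold change was 0.01 for the large-subunit genes and 0.03 for the small-subunit genes, beside -0.01 for all genes tested. The large-subunit median minus the small-subunit median was -0.01, less than the spread of that difference between libraries of 1 group (pooled SD 0.02). In the large subunit 30 genes (61.2%) had an estimate above 0 and 19 below, and in the small subunit 17 (58.6%) and 12. Among all genes tested, 43.6% had an estimate above 0. Summed over genes, large-subunit FPKM was 2.12, 2.12 and 2.13 times small-subunit FPKM in the control libraries and 2.09, 2.14 and 2.12 times in the Tdo2high CM libraries. The ratio thus overlapped between the groups.

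Names do not always give the place in the ribosome. Mrps30 and Mrps18a, named for the small subunit, lie in the large subunit of the mammalian structure, and Mrps36 is a subunit of the oxoglutarate dehydrogenase complex. Placed by structure, 51 genes were large-subunit and 26 small-subunit, with medians of 0.01 and 0.02. Mrps30 had 15.9 ± 1.11 FPKM with control CM and 15.6 ± 0.786 FPKM with Tdo2high CM, and Mrps18a had 30.4 ± 0.783 and 31.9 ± 1.39. Mrps36, which has named processed copies, had 24.5 ± 2.48 and 25.7 ± 1.82 FPKM. None of the 3 was called, and neither were the paralogs of Mrps18a, Mrps18b (0.04) and Mrps18c (0.09), at adjusted p = 0.695 and 0.195.

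Libraries of 1 group differed from each other as much as the groups did. The median deviation of a member from its own mean over the 6 libraries was -0.03, 0.02 and -0.03 (log2) in control CM replicates 1 to 3 and 0.03, -0.02 and -0.003 in Tdo2high CM replicates 1 to 3. Control CM replicate 2 and Tdo2high CM replicate 1 stood on the high side together. They held the highest value of 22 and 20 of the 78 genes (28.2% and 25.6%), where 20.4% and 14.5% of all genes tested were highest in those libraries. Control CM replicate 1 was the highest library for 4 members, or 5.13%, against 19.9% of all genes tested. After a correction for GC content and transcript length the counts for control CM replicate 2 and Tdo2high CM replicate 1 were 18 and 19. The members' summed FPKM was 2149, 2207 and 2120 with control CM and 2214, 2172 and 2184 with Tdo2high CM, between 0.483% and 0.498% of all FPKM, and the groups overlapped.

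**Figure D3:**
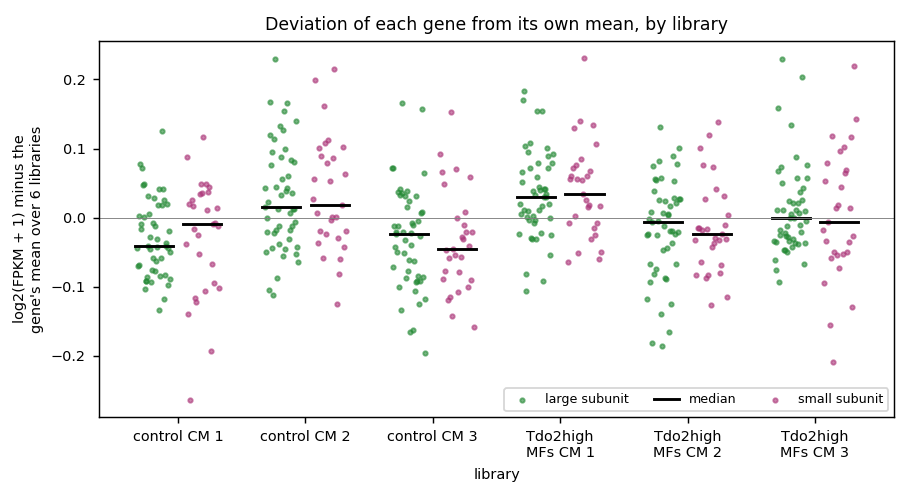
Deviation of each gene's log2(FPKM + 1) from its own mean over 6 libraries (vertical axis) by library (horizontal axis), 1 point per gene, green for the large and purple for the small subunit, with black bars for the medians. The medians of both subunits are above 0 in control CM replicate 2 and Tdo2high CM replicate 1 and at or below 0 in the other 4 libraries.

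The rest of the mitochondrial translation machinery was read by the same test. Of 5 ribosomal proteins with other symbols, none was called, at 0 with an unadjusted p under 0.05 by limma; Dap3, a GTP-binding protein of the small subunit, had 46.3 ± 1.81 FPKM with control CM and 45.0 ± 1.75 FPKM with Tdo2high CM. Aurkaip1 (log2 fold change 0.04) and Chchd1 (0.01) were not called either. Of 15 translation factors and messenger RNA partners, 1 fell and none rose, with a median log2 fold change of -0.04. The one that fell was Gfm1, the elongation factor that moves the ribosome along the messenger RNA. Gfm1 had 14.1, 13.5 and 12.3 FPKM with control CM and 11.5, 10.9 and 11.1 FPKM with Tdo2high CM, and all control libraries were higher. Its log2 fold change was -0.23 (adjusted p = 0.0256 by limma), and the call held in 11 of 17 alternatives. The elongation factor Tufm (-0.04), Slirp (-0.02) and the membrane insertase Oxa1l (0.01) were not called.

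Of 27 genes for ribosome assembly and rRNA maturation, 2 fell and none rose, with a median of -0.04. Mettl17, which binds the small subunit during its assembly, had 11.5, 11.3 and 10.9 FPKM with control CM and 9.52, 9.56 and 9.57 FPKM with Tdo2high CM. The groups were well apart, the log2 fold change was -0.21 (adjusted p = 0.0130 by limma), and the call held in 16 of 17 alternatives. Mrm3, a methyltransferase of the large-subunit rRNA, had 6.68, 6.60 and 5.68 FPKM with control CM and 4.91, 5.27 and 5.26 FPKM with Tdo2high CM. It was lower without overlap (-0.25, adjusted p = 0.0447), and the call held in 7 of 17 alternatives, so that it was less stable than that of Mettl17. Afg3l2 (-0.07) and Spg7 (-0.04), the protease subunits that process Mrpl32 protein, and the helicase Dhx30 (-0.06) were not called.

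None of 12 genes for transcription and upkeep of the mitochondrial genome was called, at 4 with an unadjusted p under 0.05 by limma (33.3%, beside 23.7% of all genes tested). The groups did not overlap in 5 of the 12 (41.7%, beside 29.2%), and the median log2 fold change was -0.07. Polrmt, the mitochondrial RNA polymerase, had 6.13, 6.34 and 6.31 FPKM with control CM and 5.54, 5.58 and 5.32 FPKM with Tdo2high CM (log2 fold change -0.16, adjusted p = 0.0696). The other 3 with an unadjusted p under 0.05 were the elongation factor Tefm (-0.19, adjusted p = 0.0832), the topoisomerase Top1mt (-0.18, 0.176) and Tfb2m (0.10, 0.147); Tefm and Top1mt were chosen after their values were seen. Ssbp1 (-0.04) and Twnk (-0.03) did not pass. Of 9 tested regulators of mitochondrial genes, none was called. An unadjusted p under 0.05 by limma was found for 2 (22.2%, beside 23.7% of all genes tested), Yy1 and the coactivator Pprc1. Pprc1 (-0.16, adjusted p = 0.125) was named after its value was seen. Yy1, a transcription factor, had 35.4 ± 0.713 and 38.5 ± 1.01 FPKM (0.12, adjusted p = 0.0537), Myc 46.0 ± 2.31 and 46.9 ± 1.55 FPKM, and Hcfc1 24.7 ± 0.675 and 23.8 ± 0.686 FPKM. Of the mitochondrial tRNA synthetases, 1 of 16 tested fell, Sars2. All Tdo2high CM libraries were below all control libraries in 6 of the 16 (37.5%, beside 17.5% of all genes tested). Of 80 tested cytosolic ribosomal protein genes, 2 rose and none fell, with a median of 0.01. They were Rpl21 (log2 fold change 0.15, adjusted p = 0.0475 by limma) and Rpl23 (0.17, adjusted p = 0.0256). The synthetases and the cytosolic ribosomal proteins were added as groups after values had been seen. Control and Tdo2high CM libraries did not overlap in 3 translation factors, 6 assembly genes, 2 regulators and 12 cytosolic ribosomal proteins. Each of these was a smaller share than the 29.2% of all genes tested. In the 5 ribosomal proteins with other symbols the libraries always overlapped. The shares called in these groups were 6.67% of the translation factors, 7.41% of the assembly genes, 6.25% of the synthetases and 2.50% of the cytosolic ribosomal proteins, beside the 7.41% of all genes tested.

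By RefSeq's positions on GRCm38, the 78 genes lay on 17 chromosomes, and the chromosome with most of them held 11. Start-site sequences were matched for 69 members. Of these, 24 (34.8%) started within 1000 bases of an oppositely oriented tested gene pointing away from them, against 13.05% of the 8752 tested genes with such sequences. Their 24 partner entries had a median log2 fold change of -0.001. Of these 24, 2 fell, Sars2 and Gga3, and none rose. Among all genes tested, 4.06% were called lower and 3.35% higher. Mrps11 and Mrpl46, which are each other's partner with starts 42 bases apart, had log2 fold changes of 0.22 and 0.07, and neither was called. Zfp189, on the other side of the Mrpl50 start, had 2.77 ± 0.249 FPKM with control CM and 2.98 ± 0.168 FPKM with Tdo2high CM and was not called (adjusted p = 0.551 by limma). The annotated spans of 25 members overlap another gene, Mrpl14 and Mrpl48 among them. Without a stated strand setting, reads from the stretches shared by both genes may not be told apart.

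Mrps12, which forms part of the decoding centre, and Sars2, the mitochondrial seryl-tRNA synthetase, start 147 bases apart. Sars2 had 2.83, 2.85 and 2.99 FPKM with control CM and 2.08, 2.09 and 1.97 FPKM with Tdo2high CM, a log2 fold change of -0.35 ± 0.06 (adjusted p = 0.00930 by limma) that was called in 17 of 17 alternatives. Mrps12 had 15.9, 16.0 and 14.7 FPKM with control CM and 16.9, 14.5 and 14.3 FPKM with Tdo2high CM, with overlap (log2 fold change -0.03, 95% interval -0.17 to 0.11). The difference between both genes (log2(FPKM + 1) of Mrps12 minus that of Sars2) was 2.09 ± 0.0942 with control CM and 2.41 ± 0.113 with Tdo2high CM (SD, n = 3 per group). Its values did not overlap between the groups, and the exact permutation test gave p = 0.1, two-sided, the smallest that 3 against 3 allows. This pair was picked out after its values were seen. The same exact permutation test, two-sided, gave p = 0.3 for Mrps11 with Mrpl46 and p = 0.5 for Mrpl50 with Zfp189. Gga3, whose start lies 224 bases from that of Mrps7, had 12.9 ± 0.336 FPKM with control CM and 11.2 ± 0.510 FPKM with Tdo2high CM (-0.19, adjusted p = 0.0325 by limma), a call that held in 11 of 17 alternatives. The Mrps7 estimate was also below 0, and the difference between those 2 genes overlapped between the groups (exact permutation p = 0.3, two-sided). The gene spans of Mrps7 and Gga3 overlap, and strand-specific counting is not stated, so part of the reads may be shared.

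**Figure D4:**
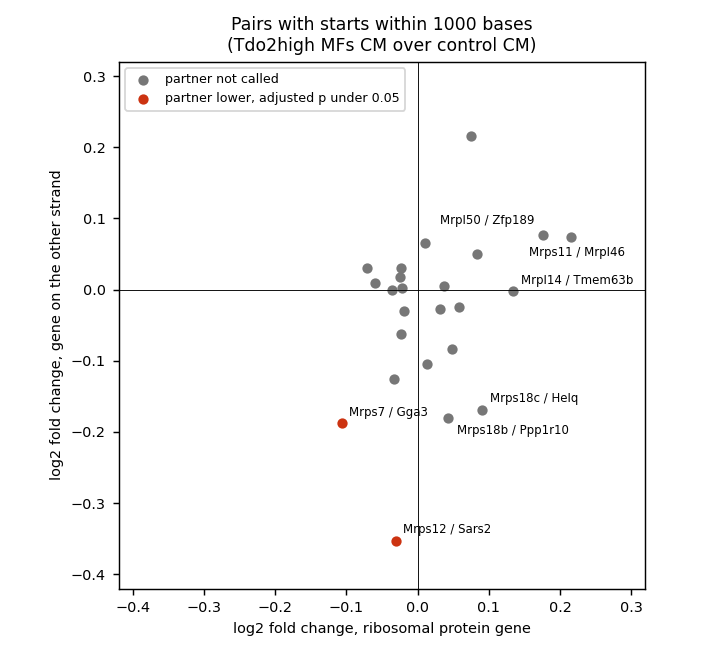
Log2 fold change (Tdo2high MFs CM over control CM) of a mitochondrial ribosomal protein gene (horizontal) against that of the gene starting within 1000 bases on the opposite strand (vertical), 1 point per member (24; Mrps11 and Mrpl46 appear from both sides). The partners in red, Sars2 at -0.35 and Gga3 at -0.19, were called lower, while their ribosomal protein genes Mrps12 and Mrps7 lie at -0.03 and -0.11.

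Known binding motifs were looked for on both strands from 250 bases before to 50 bases after each start. A gene was counted once if any of its starts had a match, whereas shares of windows count single starts. Genes with several starts had more chances to match, so shares of genes and of windows differ in unit. The ETS motif CCGGAAGT, bound by the GABPA factor among others, was found for 12 of 69 members (17.4%), against 10.1% of tested genes and 3.89% of all 32851 windows. An NRF1 motif, GCGCATGCG, was found for 7 (10.1%), against 4.47% of tested genes and 1.75% of windows, and Mrpl32 has it in both capitalised places of its stretch. The first of these places matches on both strands. AAGATGGCG, of YY1, was found for 8 (11.6%), against 3.95% and 1.40%. The E-box CACGTG, bound by MYC among others, was found for 5 (7.25%), against 12.01% and 7.15%. The core TGACNNNGC of the antioxidant response element was found for 14 (20.3%), against 17.1% and 12.4%, and is the match in the Mrpl50 stretch. The motifs were counted separately, and a match is a run of letters only. The median log2 fold change was 0.03 for the members with the antioxidant core and 0.01 for those without it, 0.01 and 0.03 for the ETS motif, 0.01 and 0.03 for YY1, -0.02 and 0.03 for the E-box and -0.05 and 0.03 for NRF1.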

How the data were processed

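The authors deposited 1 table of FPKM values, per the file headers, rounded to 2 decimals. Per the labels' protocols, polyA RNA was primed with random hexamers and sequenced at BGI. GRCm38 is the build named by the submitters' processing notes. The aligner, like the counting tool and strand setting, was not given in the sources used here. Columns were matched to samples by title.

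Genes with at least 1 FPKM in at least 3 libraries were kept. Values were tested as log2(FPKM + 1) by limma 3.58.1 in R 4.3.3 (intensity trend, two-sided, no replicate block), adjusted by Benjamini-Hochberg over all tested genes at a threshold of 0.05; the fit was tested on simulated data. Folds on this scale understate the change of weak genes. Members and gene lists were chosen with earlier results of these data known. Named were all members called, the 4 highest and 4 lowest changes and the 3 highest and 3 lowest levels of each subunit, 6 members fixed by name (such as Mrpl12), and the called and most abundant genes of each list; the cytosolic ribosomal proteins, the tRNA synthetases, neighbours and motifs were added later, as were other members named. Length and GC content came from GENCODE M21 transcripts, for 98.4% of tested genes. Figures were drawn with matplotlib 3.10.9.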

Additional observations from a re-analysis of the deposited data

How the results depend on the processing

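Of the 78 members, 1 was called as reported; 2 were called with a pseudocount of 5, with 1 FPKM required in all 6 libraries, under median of ratios scaling, with robust variance estimates and after correcting for GC content and length, and 0 with no filter on low values, with no intensity trend and with the replicate block. Leaving out 1 library gave 0 to 2 members called. The second member was Mrpl52 in 4 of those settings and Mrpl14 after that correction, and without control CM replicate 2 the 2 were Mrpl14 and Mrps11. Among all genes, 801 were called as reported, 375 with no filter and 525 with no intensity trend, and 395 to 559 without 1 library. The unadjusted count of members was 9 with no filter, 7 with no intensity trend and 12 with the block. The median log2 fold change ran from -0.0051 to 0.0289 in the large subunit and from -0.0067 to 0.0376 in the small subunit without 1 library, and the difference of the medians from -0.0086 to 0.0105; the small-subunit median was below 0 when control CM replicate 3 (-0.0053) or Tdo2high CM replicate 1 (-0.0067) was left out. The difference was then above 0, as it was with the correction (0.0031). Both subunits' medians were above 0 under every other scaling, pseudocount and filter tried. The replicate block called 622 genes. Same-numbered samples did not deviate together (correlations -0.023, -0.0305 and 0.018). With 3 samples per group, such correlations cannot exclude that the numbers pair the samples. Without read counts, the 3 libraries per group and their spread set the precision.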
